A study of Mus musculus with 10 samples.

Results

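Spp1, Gpnmb, Lgals1, Lgals3, Fabp5, Cd9, Cd63, Cst7, Plin2 and Mmp12 are 10 genes known as markers of axon tract-associated and disease-associated microglia. They were chosen by name, with earlier results of these data known, and all 10 were found among the 49315 genes of the deposited count tables. The libraries came from microglia, the resident macrophages of the brain, sorted from brains of wild-type C57BL/6 mice by surface CD11c, the integrin chain encoded by Itgax. There were 2 libraries of CD11c+ and 2 of CD11c- microglia from 9-month mice, and 3 of CD11c+ and 3 of CD11c- microglia from mice at postnatal day 5 (P5), 10 in all. The study set the CD11c+ subset against the CD11c- subset at each age. The labels do not say whether replicates came from separate animals or pools, so p-values measure the spread between these libraries, which may be technical. The gate used to sort the cells was not given in the sources used here. In sorted bulk RNA, fewer cells of a type and less RNA per cell cannot be told apart. The groups are called microglia after their labels, but some libraries also held markers of other cells, given below. A level belongs to all cells of a library.

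Microglia of this state gather along forming axon tracts of the early postnatal brain, and a related state appears around plaques and damaged myelin in adult disease models. Both take up debris, and their marker genes belong to a few working parts. Spp1 encodes osteopontin, a secreted phosphoprotein bound by integrins and CD44, and Lgals1 and Lgals3 encode galectins, lectins that bind beta-galactosides on glycoproteins. Gpnmb encodes a transmembrane glycoprotein of late endosomes and lysosomes. Cd9 and Cd63 encode tetraspanins, of the plasma membrane and of late endosomes. Fabp5 encodes a carrier of fatty acids inside the cell and Plin2 the coat protein of lipid droplets. Mmp12 encodes the macrophage elastase, a secreted metalloproteinase, and Cst7 encodes cystatin F, an inhibitor of lysosomal cathepsins.

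All 10 are annotated as protein-coding genes, and each value below counts reads over a gene's exons. In the coordinates of the deposited tables, Spp1 (ENSMUSG00000029304) on chromosome 5 from 104435118 to 104441050, Lgals1 (ENSMUSG00000068220) on chromosome 15 from 78926725 to 78930465 and Lgals3 (ENSMUSG00000050335) on chromosome 14 from 47367751 to 47386160 encode the secreted ligands. The membrane genes are Gpnmb (ENSMUSG00000029816) on chromosome 6 from 49036546 to 49070929, Cd9 (ENSMUSG00000030342) on chromosome 6 from 125460266 to 125494791 and Cd63 (ENSMUSG00000025351) on chromosome 10 from 128908919 to 128912816. The lipid genes are Fabp5 (ENSMUSG00000027533) on chromosome 3 from 10012548 to 10016607 and Plin2 (ENSMUSG00000028494) on chromosome 4 from 86648386 to 86670060, and the protease and inhibitor genes are Mmp12 (ENSMUSG00000049723) on chromosome 9 from 7344381 to 7369499 and Cst7 (ENSMUSG00000068129) on chromosome 2 from 150570415 to 150578944. Gpnmb and Cd9 lie on the same chromosome, and no others do. The strand setting was not given, so reads of overlapping genes cannot be told apart. The genes overlapping Cd9 held 564 counts in all against 152259 for Cd9, and the gene overlapping Spp1 held 162. Of the near-identical copies, only the Cd63 pseudogene Cd63-ps held over 55 counts, with 2223 against 97530 for Cd63.

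Promoters are shown for the genes with a RefSeq window that passed between CD11c+ and CD11c- microglia at 9 months, or at P5 without 1 shallow library, as RefSeq sequence of GRCm38.p6. Spp1 and Mmp12 have 2 windows each, of which the upstream one is printed. Each stretch holds 270 bases, the 250 before the annotated start and 20 from it, written 5′ to 3′ on the gene's own strand. Capitals mark exact matches to motif letters searched on both strands.
Spp1 chr5:104434861-104435130, plus strand: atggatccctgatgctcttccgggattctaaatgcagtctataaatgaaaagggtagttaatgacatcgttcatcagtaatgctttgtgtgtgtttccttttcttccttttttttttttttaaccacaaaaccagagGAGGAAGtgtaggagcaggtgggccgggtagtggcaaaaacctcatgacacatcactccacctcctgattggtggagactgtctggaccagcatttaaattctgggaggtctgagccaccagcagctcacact
Gpnmb chr6:49036268-49036537, plus strand: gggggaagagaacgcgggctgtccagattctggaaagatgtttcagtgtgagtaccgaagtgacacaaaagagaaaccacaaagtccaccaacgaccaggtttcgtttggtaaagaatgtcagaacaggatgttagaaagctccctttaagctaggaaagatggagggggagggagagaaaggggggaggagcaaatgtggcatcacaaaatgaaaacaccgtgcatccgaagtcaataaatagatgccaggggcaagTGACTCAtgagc
Lgals3 chr14:47373610-47373879, plus strand: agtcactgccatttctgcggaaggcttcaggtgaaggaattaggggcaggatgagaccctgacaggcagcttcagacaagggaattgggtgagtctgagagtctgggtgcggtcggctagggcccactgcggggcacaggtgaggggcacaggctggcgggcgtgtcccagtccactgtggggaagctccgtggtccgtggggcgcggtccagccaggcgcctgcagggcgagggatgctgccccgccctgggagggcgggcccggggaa
Plin2 chr4:86670040-86670309, minus strand: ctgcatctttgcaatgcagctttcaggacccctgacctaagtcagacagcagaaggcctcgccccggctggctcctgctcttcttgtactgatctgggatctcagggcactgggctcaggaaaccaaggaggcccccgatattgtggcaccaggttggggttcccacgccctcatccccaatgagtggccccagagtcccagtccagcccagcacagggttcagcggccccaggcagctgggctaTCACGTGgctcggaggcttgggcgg
Mmp12 chr9:7344147-7344416, plus strand: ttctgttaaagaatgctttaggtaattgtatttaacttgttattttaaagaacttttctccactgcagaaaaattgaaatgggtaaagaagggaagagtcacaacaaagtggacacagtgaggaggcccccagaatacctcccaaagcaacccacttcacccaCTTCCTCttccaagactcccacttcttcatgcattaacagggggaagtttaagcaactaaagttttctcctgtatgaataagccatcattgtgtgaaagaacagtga
The letters searched were GAGGAAG, the core bound by the myeloid factor PU.1, TGANTCA, bound by AP-1, and TCACGTG, the E-box form bound by the MITF and TFE lysosomal factors. TCACGTG contains the shorter E-box core CACGTG, and none of the marked matches overlaps another. Spp1 held GAGGAAG beginning 113 bases before the start. Mmp12 held its reverse complement beginning 87 bases before it. Gpnmb held TGACTCA at base 9 of the transcript, and Plin2 held TCACGTG beginning 5 bases before its start, and Lgals3 held none of the 3. Windows were found for 8 of the 10 genes, 10 windows in all, and the full windows of 300 bases were searched. Further matches were TGATTCA beginning 6 bases before the start of Cst7, TGAGTCA beginning 44 bases before another start of Mmp12, and GAGGAAG on the opposite strand beginning 60 bases before the start of Cd63. Of all 32851 windows of that length, 13.6% held GAGGAAG, 7.81% TGANTCA and 3.77% TCACGTG. A match describes letters in the window, and no binding was measured.

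Total counts per library ran from 11892082 to 25483573, except P5 CD11c+ replicate 2 with 2619610. In that library 23033 genes reached 1 CPM (counts scaled to the library total), while 12762 to 14735 did in each of the other 9. It differed in content as well as in depth. Noncoding genes and pseudogenes took 10.8% of its counts, against 1.40% to 3.42% in the others. Its correlations of log2(CPM + 1) with replicates 1 and 3 were 0.80 and 0.804, against 0.996 between those 2. The 10 neuronal genes summed to 110 CPM, against 6.65 and 8.07 CPM in replicates 1 and 3. Each P5 result is therefore given with and without it. The microglial markers P2ry12, Tmem119, Cx3cr1 and Csf1r were detected in every library. The labels give the SMART-Seq v4 kit for 9-month libraries and describe the others only as standard Illumina preparations, so age and kit cannot be told apart. As a check on the sort, Itgax averaged 26.9 ± 5.23 CPM in 9-month CD11c+ and 5.77 ± 1.39 CPM in 9-month CD11c- libraries (SD, n = 2 each), and passed (log2 fold change 2.08 ± 0.33; edgeR adjusted p = 0.00397). At P5 it averaged 125.5 ± 91.8 CPM in CD11c+ and 40.8 ± 18.9 CPM in CD11c- libraries (SD, n = 3 each), and passed only without P5 CD11c+ replicate 2 (log2 fold change 2.06 ± 0.38; edgeR adjusted p = 0.0222). Levels are CPM after trimmed-mean (TMM) scaling over the 10 libraries, fold changes are log2 of CD11c+ over CD11c- unless ages are named, errors of fold changes are standard errors, and a gene passed at a Benjamini-Hochberg adjusted p under 0.05 over all genes tested.

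**Figure D1:**
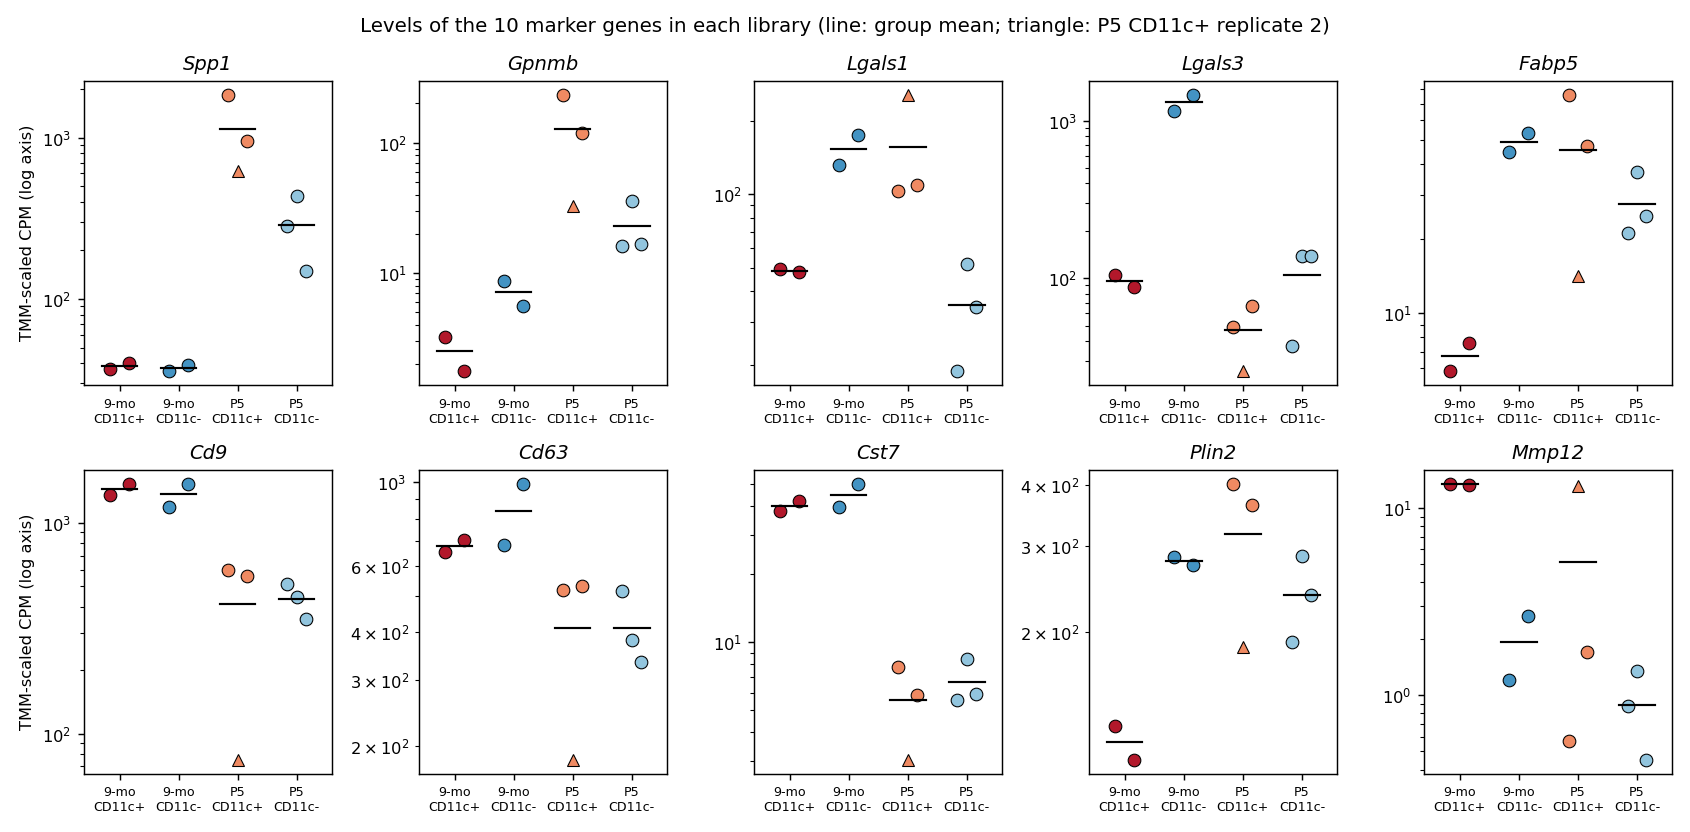
TMM-scaled CPM (log axis) of each of the 10 genes in every library, by group, with a line at the group mean and a triangle for P5 CD11c+ replicate 2. Spp1 lay between 35.7 and 39.9 CPM in all 4 libraries of 9-month mice and between 621 and 1842 CPM in P5 CD11c+ libraries, while Lgals3 reached 1153 and 1460 CPM in 9-month CD11c- libraries only.

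Per kilobase of exon, which makes genes comparable with each other, the order of the 10 genes differed between groups. In 9-month CD11c+ microglia the tetraspanins led, with Cd9 at 706 ± 58.0 and Cd63 at 658 ± 33.5 CPM per kilobase (SD, n = 2). Lgals1 and Lgals3 followed at 60.7 ± 1.05 and 52.0 ± 6.50 CPM per kilobase, and Spp1 was at rank 7, at 23.3 ± 1.27 CPM per kilobase. Gpnmb was the lowest of the 10 in that group at 0.387 ± 0.162 CPM per kilobase. In 9-month CD11c- libraries Cd63, Lgals3 and Cd9 stood together at the top, at 813 ± 211, 703 ± 117 and 667 ± 120 CPM per kilobase (SD, n = 2). These libraries also held 13.9% to 18.9% of their counts in 16 neutrophil genes. In P5 CD11c+ libraries Spp1 was the highest at 691 ± 383 CPM per kilobase, ahead of Cd63 at 398.5 ± 191 and Cd9 at 201 ± 142 (SD, n = 3). Border-associated macrophage genes took 1.41% to 1.81% of counts there. In P5 CD11c- microglia Cd63 led at 397.5 ± 90.6 CPM per kilobase, and Spp1 was at rank 3, at 175 ± 85.6 (SD, n = 3). Mmp12 was the lowest of the 10 in the other 3 groups, at 0.265 ± 0.139 CPM per kilobase in 9-month CD11c-, 0.708 ± 0.958 in P5 CD11c+ and 0.123 ± 0.0615 in P5 CD11c- libraries. Together the 10 genes took 0.219% and 0.230% of the counts of the 9-month CD11c+ libraries and 0.307% of both 9-month CD11c- libraries. At P5 they took 0.214% to 0.443% in CD11c+ and 0.121% to 0.186% in CD11c- libraries.

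At 9 months, most of these genes were not higher in CD11c+ microglia. Lgals3, Fabp5, Lgals1, Gpnmb and Plin2 were lower in CD11c+ than in CD11c- libraries, by 14.7-fold to 2.56-fold, and Mmp12 was 6.57-fold higher. Spp1, Cd9, Cd63 and Cst7 did not pass. So 5 of the 10 fell and 1 rose, where 18.2% of the 15740 genes tested fell and 14.8% rose. The median log2 fold change of the 10 was -0.886, beside 0.022 for all genes tested. In the 5 that fell both CD11c+ libraries lay below both CD11c- libraries, as in 29.7% of all genes tested, and in Mmp12 both lay above, as in 40.4%.

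Among the secreted ligands, Spp1 had 36.9 and 39.9 CPM in CD11c+ libraries and 35.7 and 39.1 CPM in CD11c- libraries. The groups interleaved, with a log2 fold change of -0.09 ± 0.18 (edgeR adjusted p = 0.745). Lgals3 had 105 and 88.0 CPM in CD11c+ libraries, against 1153 and 1460 CPM in CD11c- libraries. Every CD11c- library was far above every CD11c+ library, and the fold change of -3.87 ± 0.18 was the largest of the 10 (edgeR adjusted p = 3.62e-05). Lgals1 moved the same way over a smaller range, with 49.2 and 48.0 CPM in CD11c+ libraries and 131 and 174 CPM in CD11c- libraries. Its fold change was -1.77 ± 0.17 (edgeR adjusted p = 0.000479).

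Gpnmb was near the low end of what was measured, with 3.27 and 1.77 CPM in CD11c+ libraries (76 and 37 counts), against 8.68 and 5.60 CPM in CD11c- libraries (180 and 83 counts). Its fold change was -1.64 ± 0.50 (edgeR adjusted p = 0.0448). This call rested on the smallest margin of the 5. It was -1.21 (edgeR adjusted p = 0.171) without 9-month CD11c+ replicate 2 and -1.18 (edgeR adjusted p = 0.12) without 9-month CD11c- replicate 1. The tetraspanin Cd9 had 1359 and 1526 CPM in CD11c+ libraries and 1190 and 1536 CPM in CD11c- libraries, overlapping groups with a fold change of -0.04 ± 0.14 (edgeR adjusted p = 0.866). Cd63 had 654 and 703 CPM in CD11c+ libraries and 684 and 992 CPM in CD11c- libraries. It did not pass, at -0.42 ± 0.16 (edgeR adjusted p = 0.0935), but did at -0.59 (edgeR adjusted p = 0.0302) without 9-month CD11c- replicate 1.

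Both lipid genes were lower in CD11c+ microglia. Fabp5 had 5.85 and 7.57 CPM in CD11c+ libraries, against 44.8 and 53.2 CPM in CD11c- libraries (log2 fold change -2.99 ± 0.23; edgeR adjusted p = 0.00017). Plin2 had 129 and 110 CPM in CD11c+ libraries and 284 and 274 CPM in CD11c- libraries (log2 fold change -1.35 ± 0.17; edgeR adjusted p = 0.00167). The protease and the protease inhibitor parted. Mmp12 had 13.5 and 13.3 CPM in CD11c+ libraries (314 and 277 counts), against 1.21 and 2.63 CPM in CD11c- libraries (25 and 39 counts), and rose by 2.72 ± 0.42 (edgeR adjusted p = 0.00346). Cst7 had 38.3 and 42.2 CPM in CD11c+ and 39.6 and 50.4 CPM in CD11c- libraries, with a fold change of -0.28 ± 0.18 that did not pass (edgeR adjusted p = 0.286).

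**Figure D2:**
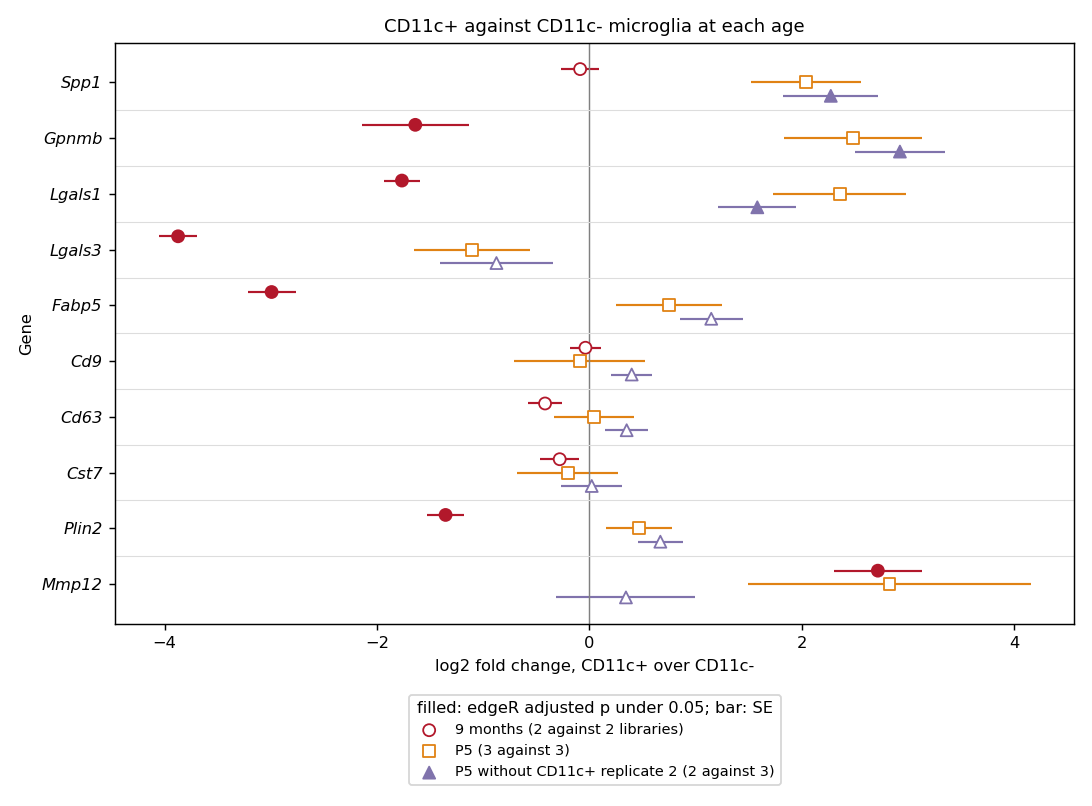
Log2 fold change of CD11c+ over CD11c- microglia for each gene at 9 months (circles), at P5 (squares) and at P5 without CD11c+ replicate 2 (triangles), with bars of 1 standard error and filled symbols for an edgeR adjusted p under 0.05. Gpnmb and Lgals1 lie at -1.64 and -1.77 at 9 months and at 2.92 and 1.58 at P5 without that library.

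Markers of other cells also differed between the 9-month subsets. The 16 neutrophil genes took 0.218% to 0.312% of counts in CD11c+ libraries, against 13.9% to 18.9% in CD11c- libraries. The 12 monocyte genes took 0.0354% to 0.048% in CD11c+ and 1.63% to 1.91% in CD11c- libraries, and the 12 eosinophil and basophil genes 0.00597% to 0.00647% in CD11c+ and 0.164% to 0.174% in CD11c- libraries. All 12 monocyte genes, 15 of the 16 neutrophil genes and 11 of the 12 eosinophil and basophil genes were lower in CD11c+ libraries. Of the neutrophil genes Stfa2 was at 0 in the CD11c+ libraries, and Elane and Mpo were at 1.10 to 4.17 and 1.63 to 7.86 CPM there, against 802 to 879 and 1468 to 1480 CPM in CD11c- libraries. The 14 border-associated macrophage genes took 0.207% to 0.219% in CD11c+ and 0.0555% to 0.0653% in CD11c- libraries. The 10 dendritic cell genes took 0.0289% to 0.0305% in CD11c+ and 0.00494% to 0.00628% in CD11c- libraries. Of those that passed, the 4 with the smallest p, Cd209a, Ccr7, Flt3 and Irf4, were higher in CD11c+ libraries. Cd209a alone averaged 214 CPM in CD11c+ and 25.8 CPM in CD11c- libraries. Ccr7, Flt3 and Irf4 averaged 23.6, 24.4 and 11.7 CPM in CD11c+ libraries and 3.25, 11.45 and 4.52 CPM in CD11c- libraries. The part of these cells in the results for Lgals3, Lgals1, Fabp5, Plin2, Gpnmb and Mmp12 was not tested. The 24 homeostatic microglial genes took 8.33% to 8.97% of counts in CD11c+ and 2.87% to 2.89% in CD11c- libraries, and 22 of the 24 rose, with Csf1r at 1.89 ± 0.16 (edgeR adjusted p = 0.000312). With libraries scaled to those 24 genes, the median of all genes was -1.18, and 54.6% of genes fell and 0.75% rose. On that scale Spp1, Cd9, Cd63 and Cst7 passed as lower, at -1.30, -1.24, -1.62 and -1.48, close to that median, and Mmp12 stayed higher at 1.53 (edgeR adjusted p = 0.015).

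**Figure D3:**
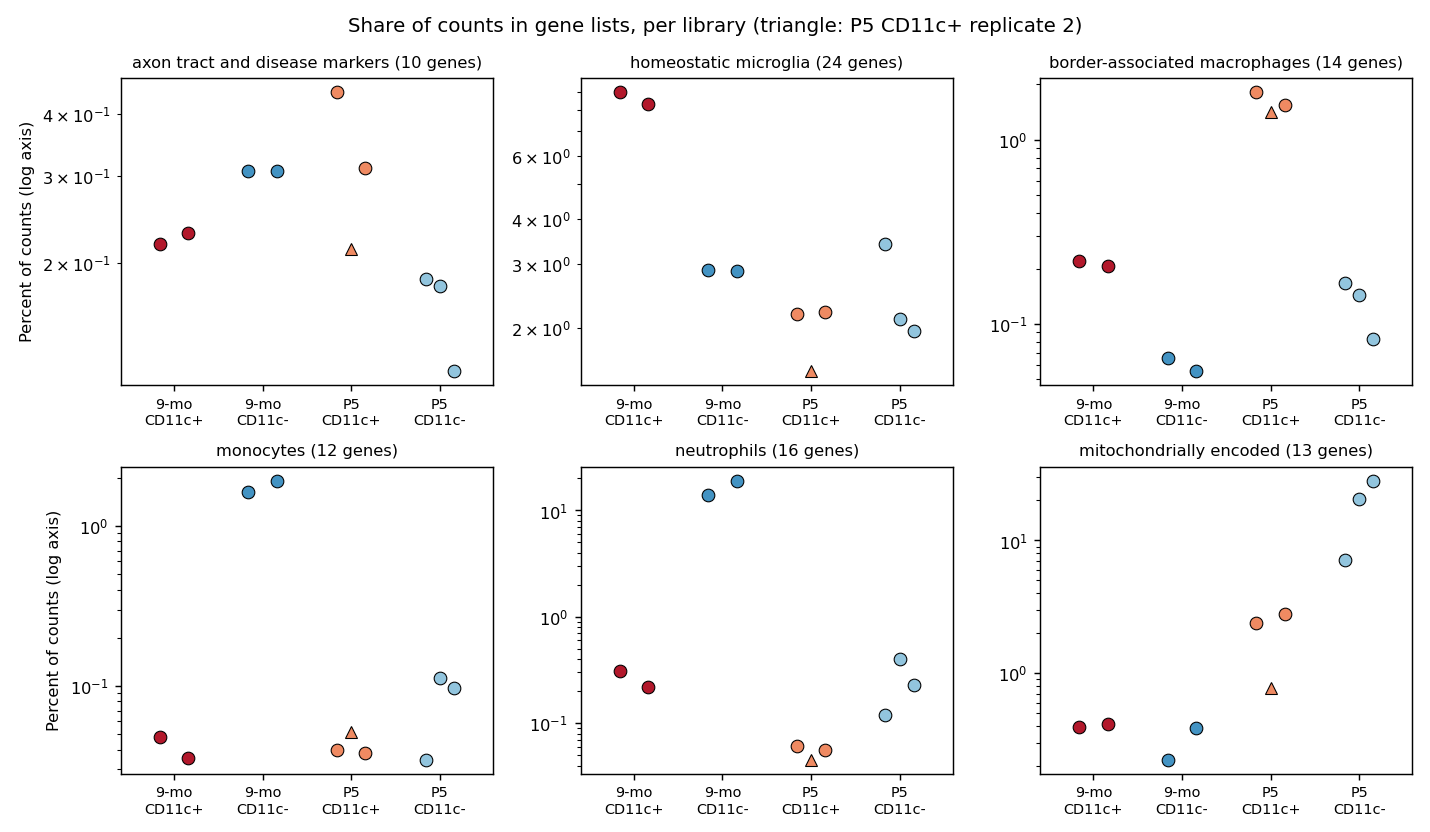
Percent of each library's counts (log axes) in the 10 genes and in lists of homeostatic microglial, border-associated macrophage, monocyte, neutrophil and mitochondrially encoded genes, with a triangle for P5 CD11c+ replicate 2. Neutrophil genes reached 13.9% to 18.9% in 9-month CD11c- libraries and stayed under 0.4% in the other groups, and border-associated macrophage genes took 1.41% to 1.81% in P5 CD11c+ libraries.

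Genes that work with the 10 were compared in the same fit. Among 30 other genes of the disease-associated state, 14 rose and 7 fell at 9 months, but 3 rose and 15 fell with libraries scaled to the homeostatic list. The lipid carrier gene Apoe rose by 2.04 ± 0.15 (edgeR adjusted p = 0.000148), whereas the lysozyme gene Lyz2 fell by 3.40 ± 0.22 (edgeR adjusted p = 9.23e-05) and Cd52 by 3.56 ± 0.24 (edgeR adjusted p = 0.000102). Among 24 other axon tract genes, 11 rose and 6 fell, and 4 rose and 13 fell on the homeostatic scale. The lysosomal protease gene Ctsb rose by 1.53 ± 0.14 (edgeR adjusted p = 0.000358), and the annexin gene Anxa2 fell by 4.27 ± 0.17 (edgeR adjusted p = 2.73e-05). Of 10 receptors and partners of osteopontin and galectins, 4 rose and 2 fell, and 1 rose and 5 fell on the homeostatic scale. The osteopontin receptor gene Cd44 had 51.1 CPM in CD11c+ and 426 CPM in CD11c- libraries (log2 fold change -3.18 ± 0.20; edgeR adjusted p = 7.62e-05), while the galectin-binding Lgals3bp rose by 1.83 ± 0.15 (edgeR adjusted p = 0.000221) and the integrin chain gene Itgb5 by 1.48 ± 0.16 (edgeR adjusted p = 0.00078).

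Of 10 other leukocyte tetraspanin genes, relatives of Cd9 and Cd63, 7 rose and 1 fell, but 0 rose and 3 fell with libraries scaled to the homeostatic list, with TMM-scaled fold changes of 1.29 ± 0.13 for Cd81 (edgeR adjusted p = 0.000675) and -1.72 ± 0.19 for Tspan32 (edgeR adjusted p = 0.000914). Of 15 cystatin and cathepsin genes tested 12 rose and 2 fell, but 0 rose and 3 fell on the homeostatic scale. Among them were Ctsa at 1.40 ± 0.14 (edgeR adjusted p = 0.000552) and Ctse at -2.70 ± 0.23 (edgeR adjusted p = 0.000283). Of 12 lipid droplet genes tested 6 fell and 1 rose, and the fallen included the triglyceride synthases Dgat1 at -3.36 ± 0.19 (edgeR adjusted p = 5.25e-05) and Dgat2 at -3.65 ± 0.20 (edgeR adjusted p = 5.27e-05). The fatty acid receptor gene Cd36 rose by 2.09 ± 0.21 (edgeR adjusted p = 0.000564). Of 10 other matrix metalloproteinase and inhibitor genes tested 2 rose and 4 fell. The neutrophil collagenase gene Mmp8 had 35.2 CPM in CD11c+ and 4663 CPM in CD11c- libraries (-7.16 ± 0.25; edgeR adjusted p = 2.63e-05), and the gelatinase gene Mmp2 rose by 1.43 ± 0.21 (edgeR adjusted p = 0.0026). Of the other galectins 1 of 3 tested rose, Lgals8, and of the other fatty acid-binding proteins 1 of 2, Fabp4. On the homeostatic scale 11 lipid droplet, 6 metalloproteinase and inhibitor and 2 galectin genes fell, 1 lipid droplet gene rose, and no metalloproteinase, galectin or fatty acid-binding protein gene rose.

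At P5, Spp1, Gpnmb and Lgals1 stood higher in CD11c+ than in CD11c- microglia by 4.11-fold, 5.59-fold and 5.12-fold, but none passed over all genes with all 6 libraries. None of the 10 was called in either direction, where 0.299% of the 15410 genes tested rose and 0% fell. At an unadjusted p under 0.05, 668 genes were higher and 409 lower, and 3 of the 10 genes, Spp1, Gpnmb and Lgals1, were among the higher. DESeq2 called those 3 genes as higher, with 1.99% of all genes, and limma-voom none of the 10, with 0.487% of all genes. Without P5 CD11c+ replicate 2 the same 3 passed in edgeR, where 5.06% of 15841 genes rose and 4.42% fell. The median log2 fold change of the 10 was 0.609 with that library and 0.533 without it.

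Spp1 had 1842, 621 and 951 CPM in P5 CD11c+ libraries, against 282, 432 and 150 CPM in P5 CD11c- libraries. Every CD11c+ library exceeded every CD11c- library, and replicate 2 was the lowest of the 3. The fold change was 2.04 ± 0.52 (edgeR adjusted p = 0.273), and 2.27 ± 0.45 without replicate 2 (edgeR adjusted p = 0.0277). Lgals1 had 103, 255 and 109 CPM in CD11c+ libraries, against 18.8, 51.6 and 34.6 CPM in CD11c- libraries. Here too the groups did not overlap, but replicate 2 was the highest. The fold change of 2.36 ± 0.63 (edgeR adjusted p = 0.305) was 1.58 ± 0.37 without it (edgeR adjusted p = 0.0416). These were the 2 of 10 genes with every CD11c+ library above every CD11c- library, which 6.7% of all genes tested showed. None of the 10 lay below in every library, as 9.01% of all genes did. Lgals3, in contrast, had 48.9, 25.7 and 66.9 CPM in CD11c+ libraries and 37.1, 138.5 and 138 CPM in CD11c- libraries. The groups overlapped and the fold change of -1.11 ± 0.54 did not pass (edgeR adjusted p = 0.774).

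Gpnmb had 232, 32.5 and 117 CPM in P5 CD11c+ libraries and 16.2, 35.7 and 16.6 CPM in P5 CD11c- libraries. Only replicate 2 of the CD11c+ libraries, with 129 counts, reached down into the range of the CD11c- libraries. The fold change was 2.48 ± 0.65 (edgeR adjusted p = 0.296), and 2.92 ± 0.42 without that library (edgeR adjusted p = 0.0104), the largest of the 10. Cd9 had 596, 75.1 and 560 CPM in CD11c+ libraries and 513, 447 and 351 CPM in CD11c- libraries. Cd63 had 519, 184 and 530 CPM in CD11c+ libraries and 514, 381 and 334 CPM in CD11c- libraries. For both tetraspanins replicate 2 was the lowest of the 6 P5 libraries. Their fold changes were -0.09 ± 0.62 for Cd9 and 0.04 ± 0.38 for Cd63 with it, and 0.40 ± 0.19 and 0.35 ± 0.20 without it, none of which passed.

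Fabp5 and Plin2 had a pattern like that of Gpnmb in replicates 1 and 3 only. Fabp5 had 75.9, 14.1 and 47.1 CPM in P5 CD11c+ libraries and 21.1, 37.0 and 24.6 CPM in P5 CD11c- libraries. Plin2 had 402, 186 and 363 CPM in CD11c+ libraries and 191, 286 and 238 CPM in CD11c- libraries. In both genes replicates 1 and 3 lay above, and replicate 2 below, all CD11c- libraries. Fabp5 had a fold change of 0.75 ± 0.50 with all libraries and 1.15 ± 0.29 without replicate 2 (edgeR adjusted p = 0.0549), and Plin2 of 0.47 ± 0.31 and 0.67 ± 0.21 (edgeR adjusted p = 0.0914), so neither passed. Cst7 had 7.79, 3.02 and 5.85 CPM in CD11c+ and 5.57, 8.49 and 5.94 CPM in CD11c- libraries, with a fold change of -0.20 ± 0.48 (edgeR adjusted p = 0.932). Mmp12 was close to the limit of detection, with 10, 52 and 36 counts in CD11c+ libraries, against 15, 18 and 5 counts in CD11c- libraries. Replicate 2, at 13.1 CPM, held most of its CD11c+ signal beside 0.569 and 1.70 CPM. The fold change was 2.83 ± 1.33 with that library (edgeR adjusted p = 0.761) and 0.34 ± 0.65 without it (edgeR adjusted p = 0.776). Without replicate 2, 7 of the 10 genes had both CD11c+ libraries above all 3 CD11c- libraries, namely Spp1, Gpnmb, Lgals1, Fabp5, Cd9, Cd63 and Plin2, as did 24.2% of all genes tested. None of the 10 lay below, as 22.4% did.

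Markers of other cells also moved at P5. The 14 border-associated macrophage genes took 1.41% to 1.81% of counts in CD11c+ libraries, replicate 2 included, against 0.0827% to 0.167% in CD11c- libraries, with none of the 14 at 0 in either group. Lyve1 ran from 501 to 972 CPM in CD11c+ and from 6.61 to 24.4 CPM in CD11c- libraries. With all 6 libraries, the 4 genes of that list with the smallest p passed as higher (edgeR adjusted p up to 0.018). They were Fcna at 5.38, Cbr2 at 5.06, Dab2 at 4.02 and Cd209f at 7.31. The 10 dendritic cell genes took 0.012% to 0.0183% in CD11c+ and 0.00419% to 0.00639% in CD11c- libraries. Irf4 of that list (2.29) and the vascular gene Egfl7 (3.29) also passed with all 6 libraries. Mitochondrially encoded genes took 0.771% to 2.79% of counts in CD11c+ and 7.15% to 28.0% in CD11c- libraries. Neutrophil genes took 0.0453% to 0.0614% in CD11c+ and 0.12% to 0.399% in CD11c- libraries, and Elane was at 0 in the CD11c+ libraries. Their part in the higher Spp1, Gpnmb and Lgals1 was not tested. Without mitochondrially encoded genes and without replicate 2, 3 of the 10 genes passed as higher, where 4.57% of 16285 genes rose and 4.22% fell.

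Of the related lists at P5, 1 gene passed with all 6 libraries, the scavenger lectin gene Colec12 of the axon tract list, with 127 CPM in CD11c+ and 4.62 CPM in CD11c- libraries (4.82 ± 0.51; edgeR adjusted p = 0.0282). Without replicate 2, 8 of 24 other axon tract genes rose and 0 fell, among them Vat1 by 1.53 ± 0.15 (edgeR adjusted p = 0.00233) and Aplp2 by 1.58 ± 0.18 (edgeR adjusted p = 0.0039). Of 30 other disease-associated genes 6 rose and 0 fell, including the growth factor gene Igf1 by 2.15 ± 0.26 (edgeR adjusted p = 0.00525) and the proton pump subunit gene Atp6v0d2 by 2.78 ± 0.45 (edgeR adjusted p = 0.0152). Of 24 homeostatic genes 0 rose and 5 fell, with Tmem119 at -1.59 ± 0.32 (edgeR adjusted p = 0.0298). Among partners of the 10 genes, Lgals3bp rose by 1.22 ± 0.20 (edgeR adjusted p = 0.0165), Cd36 by 3.35 ± 0.68 (edgeR adjusted p = 0.0294) and the cathepsin gene Ctsc to 1025 CPM in CD11c+ libraries, against 255 CPM in CD11c- libraries (edgeR adjusted p = 0.0014). Mgll, which encodes the monoglyceride lipase, was at -1.08 ± 0.13 (edgeR adjusted p = 0.00591) and Dgat1 at -0.78 ± 0.17 (edgeR adjusted p = 0.0351). No other galectin, fatty acid-binding protein or tetraspanin of the lists passed in that fit.

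The CD11c+ to CD11c- difference was then compared between ages, as the log2 fold change at 9 months minus that at P5. It uses the libraries already described, and an effect of the kit on 1 subset alone would enter it. Of the 10 genes only Lgals1 had a difference that passed, at -3.82 ± 0.74 (edgeR adjusted p = 0.0335), where 1.56% of 19555 genes passed as lower and 0.302% as higher. Lgals1 was 3.40-fold lower in CD11c+ than in CD11c- libraries at 9 months and 5.12-fold higher at P5. The call held in 3 of 10 fits that each left out 1 library, with differences of -4.05 to -3.25. Those without P5 CD11c+ replicates 1 and 3 kept it, where 0.722% and 0.957% of all genes passed as lower. The call was lost without mitochondrially encoded genes at -3.52 (edgeR adjusted p = 0.0504). With the replicate number as a block it was lost at -3.79 (edgeR adjusted p = 0.0629), where 0% of all genes passed. Losses came without each 9-month library, which leaves 1 library in a group, and without each P5 CD11c- library. Without a 9-month library, calls were lost over all genes and not for Lgals1 alone. Without P5 CD11c- replicates 1, 2 and 3, 0.746%, 0.285% and 0% of all genes passed as lower. Fabp5 at -3.61 ± 0.80 (edgeR adjusted p = 0.054), Gpnmb at -3.99 ± 1.01 (edgeR adjusted p = 0.0845), Lgals3 at -2.62 ± 0.81 (edgeR adjusted p = 0.145), Plin2 at -1.65 ± 0.52 (edgeR adjusted p = 0.157) and Spp1 at -1.95 ± 0.74 (edgeR adjusted p = 0.234) did not pass.

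Without P5 CD11c+ replicate 2, 6 of the 10 passed as lower and 0 as higher, where 10.3% of 18348 genes passed as lower and 8.76% as higher. These were Fabp5 at -4.03 ± 0.42 (edgeR adjusted p = 0.000366), Gpnmb at -4.44 ± 0.65 (edgeR adjusted p = 0.00159), Lgals1 at -3.25 ± 0.49 (edgeR adjusted p = 0.00176), Plin2 at -1.91 ± 0.30 (edgeR adjusted p = 0.00209), Lgals3 at -2.90 ± 0.67 (edgeR adjusted p = 0.0136) and Spp1 at -2.24 ± 0.57 (edgeR adjusted p = 0.0218). Cd9, Cd63 and Cst7 had differences of -0.33 ± 0.31, -0.66 ± 0.33 and -0.19 ± 0.35 and did not pass. Mmp12 alone of the 10 had a positive value, 2.46 ± 0.82, which did not pass (edgeR adjusted p = 0.0591). In the same fit 20 of 24 homeostatic genes passed as higher and 0 as lower.

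Within a subset, 9-month libraries were also set against P5 libraries, where age and kit cannot be told apart. The libraries are those of the comparisons above. In CD11c+ microglia Spp1 averaged 38.4 ± 2.10 CPM at 9 months (SD, n = 2) and 1138 ± 632 CPM at P5 (SD, n = 3). It was 29.8-fold lower at 9 months, at a log2 value of -4.90 ± 0.65 (edgeR adjusted p = 0.00144). Gpnmb was 50.6-fold lower, with 1.77 to 3.27 CPM at 9 months and 32.5 to 232 CPM at P5 (-5.66 ± 0.89; edgeR adjusted p = 0.00259). Fabp5 averaged 6.71 ± 1.22 CPM at 9 months and 45.7 ± 30.9 CPM at P5 (-2.78 ± 0.61; edgeR adjusted p = 0.011). Lgals1 at -1.70 ± 0.53 (edgeR adjusted p = 0.0456) and Plin2 at -1.42 ± 0.38 (edgeR adjusted p = 0.0259) were lower too. Of the 10 genes only Cst7 passed as higher, with 40.2 ± 2.82 CPM at 9 months and 5.56 ± 2.40 CPM at P5 (2.80 ± 0.37; edgeR adjusted p = 0.00144). In all, 5 of the 10 were lower and 1 higher, where 11.7% of genes were lower and 11.2% higher. Without P5 CD11c+ replicate 2, Cd9 at 1.30 ± 0.23 (edgeR adjusted p = 0.00104) and Mmp12 at 3.52 ± 0.60 (edgeR adjusted p = 0.000811) passed as higher as well, where 22.8% of genes were lower and 24.6% higher.

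These age differences rested on 2 libraries of 9-month CD11c+ microglia. Leaving out replicate 1 or replicate 2 left 1 library in that group, and the fold changes kept their sign. They were -4.75 and -4.89 for Spp1, -6.11 and -5.26 for Gpnmb and -2.54 and -2.94 for Fabp5. Lgals1 was at -1.47 in both fits, and Plin2 at -1.44 and -1.24. These genes did not pass there, but most calls over all genes were lost as well. The calls for Lgals1 and Plin2 were lost in 6 and 7 of 10 fits that each left out 1 library. Besides the 9-month CD11c+ pair, both were lost without each 9-month CD11c- library and without P5 CD11c- replicate 2. Lgals1 was lost without P5 CD11c- replicate 3 too, and Plin2 without P5 CD11c+ replicate 1 or 3. CD11c- libraries enter this contrast only through the spread, the filter and the scaling. Of all genes, 7.47% passed as lower without P5 CD11c- replicate 2 and 10.1% without P5 CD11c- replicate 3. Without P5 CD11c+ replicates 1 and 3 these shares were 9.33% and 10.5%. The call for Cst7 was kept in all 10 of these fits. With libraries scaled to the homeostatic list the median of all genes was -3.05, and Cst7 did not pass on that scale, at 0.30 (edgeR adjusted p = 0.462).

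**Figure D4:**
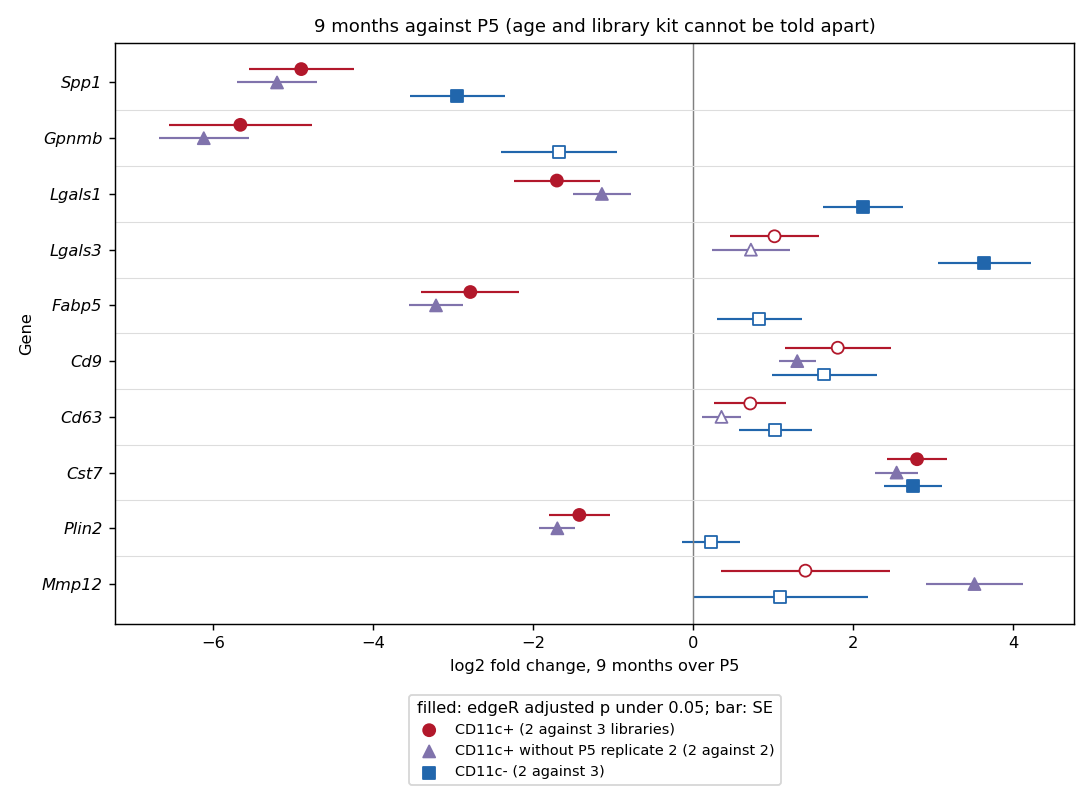
Log2 fold change of 9 months over P5 for each gene in CD11c+ microglia (circles), in CD11c+ without P5 replicate 2 (triangles) and in CD11c- microglia (squares), with bars of 1 standard error and filled symbols for an edgeR adjusted p under 0.05; age and kit cannot be told apart. Cst7 lies at 2.80 and 2.75 in the 2 subsets, while Lgals1 lies at -1.70 in CD11c+ and 2.12 in CD11c- microglia.

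In CD11c- microglia 3 of the 10 were higher at 9 months than at P5 and 1 was lower, where 11.5% of genes were higher and 11.1% lower, again with age and kit inseparable. Lgals3 averaged 1306 ± 217 CPM at 9 months (SD, n = 2) and 104.5 ± 58.4 CPM at P5 (SD, n = 3) (log2 fold change 3.64 ± 0.58; edgeR adjusted p = 0.00236). Lgals1 averaged 152.5 ± 30.4 CPM at 9 months and 35.0 ± 16.4 CPM at P5 (2.12 ± 0.50; edgeR adjusted p = 0.0143). Cst7 averaged 45.0 ± 7.67 CPM at 9 months and 6.67 ± 1.59 CPM at P5 (2.75 ± 0.37; edgeR adjusted p = 0.0011). Spp1 was lower, with 37.4 ± 2.38 CPM at 9 months and 288 ± 141 CPM at P5 (-2.95 ± 0.59; edgeR adjusted p = 0.00683). Neutrophil genes took 13.9% to 18.9% of counts in these 9-month libraries and 0.12% to 0.399% at P5, and monocyte genes 1.63% to 1.91% and 0.0345% to 0.112%, and their part in the higher Lgals3 and Lgals1 was not tested. Leaving out 1 library at a time kept the calls for Lgals3 and Cst7 in all 10 fits. Spp1 did not pass without 9-month CD11c- replicate 1 or replicate 2, at -2.87 and -3.05, which leaves 1 library in that group. Lgals1 did not pass without either of these, at 2.33 and 1.88. Without P5 CD11c- replicate 3 it did not pass either (edgeR adjusted p = 0.0556), where 7.23% of all genes passed as higher. Fewer of all genes passed in each of these fits. On the homeostatic scale Lgals1 was at 1.34 (edgeR adjusted p = 0.191). P5 CD11c+ replicate 2 enters this fit only through the spread, the filter and the scaling. Without it Cd9, Cd63 and Fabp5 also passed as higher, at 1.63, 1.02 and 0.82, and Gpnmb as lower, at -1.68. That made 6 higher and 2 lower, where 26.2% of genes were higher and 28.7% lower.

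The order of the 4 groups differed from gene to gene. Spp1 ran from P5 CD11c+ through P5 CD11c- to the 9-month groups, and only the 9-month groups overlapped as neighbours. Gpnmb ran in the order P5 CD11c+, P5 CD11c-, 9-month CD11c-, 9-month CD11c+, with overlap between the P5 groups. Lgals1 was high in P5 CD11c+ and 9-month CD11c- libraries, which overlapped, and low in 9-month CD11c+ and P5 CD11c- libraries, which overlapped too. Lgals3 in 9-month CD11c- libraries lay above all other groups, and P5 CD11c- overlapped 9-month CD11c+. Cst7, Cd9 and Cd63 had both 9-month groups above both P5 groups, with overlap between subsets at each age. For Fabp5 and Plin2 the 9-month CD11c+ libraries lay below all others, and the other 3 groups overlapped as neighbours. Mmp12 was highest in 9-month CD11c+, whose 2 libraries lay just above P5 CD11c+ replicate 2, and the other 3 groups overlapped as neighbours.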

How the data were processed

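The deposited values are raw counts of reads, not normalized, for 49315 genes in 10 libraries. Per the submitters' processing notes, Trimmomatic 0.36, STAR 2.5.2b and Subread 1.5.2 were used; the build, the strand setting and how reads with several positions were treated are not given in the sources used here. Starts and ends matched GENCODE M21 (GRCm38) for 91.4% of shared identifiers. Symbols were taken from a separate gene name reference for 48970 identifiers. Replicates were treated as separate libraries, since none was a duplicate of another.

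The 10 genes and the 22 lists of related and marker genes (293 entries, 292 matched) were chosen with earlier results of these data known. In each comparison all 10 genes were named, and from each list up to 4 genes with the smallest p among those that passed. For each age, only that age's libraries entered the quasi-likelihood test of edgeR 4.0.16 in R 4.3.3 (filterByExpr, TMM scaling). All 10 libraries entered the fit behind the difference between ages and the age contrasts. Benjamini-Hochberg adjustment covered all genes tested, with a threshold of 0.05, and scripts were tested on simulated data. Levels of single libraries and group means are TMM-scaled CPM, where plain CPM had been planned for the former. Standard errors were derived from each fold change and F value. Alternatives were DESeq2 1.42.0, limma-voom (limma 3.58.1), other scalings and filters, each library left out, and a replicate block. Leaving out P5 CD11c+ replicate 2 together with another choice was added after seeing the data. At P5 same-numbered libraries did not deviate together (correlations of 0.491, 0.0657 and -0.49), so numbers were not used as pairs. Protein sequences of the 10 genes were not analysed here.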

Additional observations from a re-analysis of the deposited data

Results flagged for a closer look

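The CD11c+ over CD11c- difference of Lgals1 differed between ages by -3.82 on the log2 scale in an interaction test (9 months minus P5; edgeR adjusted p = 0.0335). Lgals1 was lower in 2 of 2 CD11c+ libraries at 9 months and higher in 3 of 3 at P5 than every CD11c- library of the same age. P5 CD11c+ replicate 2 had the highest level, and without it the difference was -3.25 (edgeR adjusted p = 0.00176). The call was lost in 7 of 10 fits that each left out 1 library, and without mitochondrially encoded genes (edgeR adjusted p = 0.0504). It was also lost with the replicate number as a block, at -3.79 (edgeR adjusted p = 0.0629), where 0% of all genes passed. In those 7 fits calls over all genes were lost too. Without P5 CD11c- replicates 1, 2 and 3, 0.746%, 0.285% and 0% of all genes passed as lower. The others left 1 library in a 9-month group. The call was kept without P5 CD11c+ replicates 1 and 3, where 0.722% and 0.957% of all genes passed as lower, against 1.56% with all libraries. The 9-month CD11c- libraries also held 13.9% to 18.9% of their counts in neutrophil genes, whose part in the result was not tested.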

How the results depend on the processing

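Depth limits values that rest on few counts, such as Mmp12 at P5 (5 to 52 counts per library) and in 9-month CD11c- libraries (25 and 39 counts), and the CD11c+ P5 values rest on 3 libraries of which 1 is shallow. Counts of the 10 genes called (higher, lower) moved by over 1.5 times under the following choices, each given with the share of all genes called in the same direction; the cause was not tested. At 9 months, where 1 rose and 5 fell, the fit of all 10 libraries called 0 higher (1.43%) and 2 lower (Lgals3 and Fabp5; 4.49%), and scaling to the homeostatic list called 9 lower (54.6%). At P5, where 0 were called, DESeq2 called 3 higher (1.99%). With P5 CD11c+ replicate 2 left out, 4 were higher on the homeostatic scale (9.46%), 5 with DESeq2 (4.77%), 3 with limma-voom (4.53%) and 3 without mitochondrially encoded genes (4.57%). For the difference between ages, where 1 was lower, DESeq2 size factors gave 2 lower (2.66%), no mitochondrially encoded genes 0 (0.997%), the homeostatic scale 8 (30.1%), DESeq2 6 (10.9%), limma-voom 2 (2.19%) and no filter on low counts 3 (1.5%). With replicate 2 left out these were 9 on the homeostatic scale (49.6%), and 6 with DESeq2 (13.5%), with limma-voom (10.9%) and without mitochondrially encoded genes (13.7%), and DESeq2 (8.81%) and limma-voom (10.1%) each called 1 higher (Mmp12).

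For 9 months over P5 in CD11c+ (1 higher, 5 lower), 2 were higher without mitochondrially encoded genes (16.6%), 0 on the homeostatic scale (0.706%), 2 with DESeq2 (13.8%) and 3 with limma-voom (15.5%), and 3 were lower with no filter on low counts (7.54%). With replicate 2 left out, 0 were higher (1.73%) and 8 lower (73.4%) on the homeostatic scale, a share near that of all genes, and 3 were higher with DESeq2 (19.2%), with limma-voom (26.2%) and without mitochondrially encoded genes (19.9%). In CD11c- (3 higher, 1 lower), DESeq2 gave 5 higher (13.5%), and the homeostatic scale (21.1%) and no filter (5.2%) each gave 2 lower. With replicate 2 left out, 6 were higher with DESeq2 (21.1%), with limma-voom (27.1%) and without mitochondrially encoded genes (28.1%), and 2 were lower with these (24.9%, 30.7% and 25.8%) and on the homeostatic scale (43.2%).

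Signs of values that passed in either fit turned on the homeostatic scale, which moves the median of all genes to -1.96 for the difference between ages and to -3.05 for ages in CD11c+. The difference of Cst7 was -1.72 there, and -1.79 without replicate 2, and that of Cd9 was -1.95 without replicate 2. Between ages in CD11c+, Lgals3 was at -1.51 and -1.58 without replicate 2, Cd63 at -1.78 and -1.95, and Cd9 at -1.001 without replicate 2. Values that passed in neither fit turned without replicate 2, with Cd9 at P5 at 0.40 (-0.09 with it), Cst7 at P5 at 0.02 (-0.20 with it), and the differences between ages of Cd9 at -0.33 (0.17 with it) and of Cst7 at -0.19 (0.05 with it). With 1 library left out at a time, Cd9 at 9 months ran from -0.13 to 0.12, Cd63 at P5 from -0.17 to 0.35, and the differences of Cd63 and Mmp12 from -0.66 to 0.08 and from -0.18 to 2.46.

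With 1 P5 library left out at a time, 0 to 3 of the 10 were higher and 0 lower at P5. Only the fit without CD11c+ replicate 2 called any gene there, 5.06% as higher and 4.42% as lower. For the difference 0 were higher and 0 to 6 lower, where 0% to 8.76% and 0% to 10.3% of all genes were. Between ages in CD11c+ 1 to 3 were higher and 3 to 5 lower, where 7.42% to 24.6% and 7.47% to 22.8% of all genes were. In CD11c- 2 to 6 were higher and 1 to 2 lower, where 5.93% to 26.2% and 6.36% to 28.7% of all genes were. Leaving out a 9-month library left 1 library in a group, which was assumed to vary like the others. Genes called at 9 months kept the sign of their fold change in those fits. With the replicate number as a block, 1 rose and 5 fell at 9 months, where 15.8% of all genes rose and 18.7% fell. At P5 and in the difference the block fit called 0 of the 10 and 0% of all genes. Plain CPM moved 13 of 40 group levels by more than their SD, and leaving mitochondrial counts out of the total moved 17. The shortened E-box CACGTG matched the same 1 gene.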

Other observations

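As a description over the 10 libraries, which share 4 groups and 2 library kits, the genes whose log2(CPM + 1) followed Spp1 most closely among 9276 genes of at least 10 CPM on average were Galc (Pearson r = 0.988), Dnajc13 (0.982), Pde7a (0.977) and Arhgef11 (0.975). Galc encodes the lysosomal galactosylceramidase, which breaks down a myelin lipid. For Gpnmb they were the noncoding RNA Neat1 (0.976), Plekhm1 (0.951), which encodes an adaptor of lysosome fusion, Parp4 (0.95) and Arhgef11 (0.948). For Cst7 they were Ttc1 (0.995), Yipf1 (0.99), Naif1 (0.989) and 2410131K14Rik (0.989). Without P5 CD11c+ replicate 2 the coefficients of these 12 pairs were 0.949 to 0.993. The libraries form groups by age, kit and subset, so these coefficients may largely restate differences between those groups, which was not tested.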
